A study of Homo sapiens with 14 samples.

Results

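The change in ribosome footprints between definitive endoderm (DE) and PP1, the early pancreatic progenitor stage that follows it, was described across all genes with enough counts to test. The cells were HUES8, a human embryonic stem cell line, of wild-type genotype at both stages, and the labels name no treatment that sets the stages apart other than the differentiation itself. The Ribo libraries, labelled as ribosome-bound RNA, number 2 in DE and 2 in PP1, that is 4 of the 14 libraries of the series. Total RNA depleted of ribosomal RNA was sequenced from 2 DE and 2 PP1 samples as well, and these RNA libraries are set beside the footprints. Of 59050 genes in the count table, 13729 had enough Ribo counts in these 4 libraries to be tested, and the rest were filtered for low counts.

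Ribosome profiling sequences the short RNA fragments that translating ribosomes protect, so the count of a gene reflects both how much of its mRNA a cell holds and how many ribosomes sit on that mRNA. Definitive endoderm is the embryonic layer that gives rise to gut, liver and pancreas, and Nodal and WNT signals bring cells into it through mesendoderm. Posterior foregut, the source of the pancreas and the liver, forms from it under retinoic acid, FGF and BMP control. Values below are CPM, counts scaled to a common library size after TMM normalisation, which sets the bulk of genes level between libraries. Each CPM value is for a whole gene and is not divided by gene length, so levels are compared between libraries and not between genes. A gene is said to have risen or fallen only where edgeR's quasi-likelihood test gave a Benjamini-Hochberg adjusted p under 0.05, and log2 fold changes are PP1 minus DE with their standard error (SE).

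The Ribo libraries held 4710335 to 6108416 counts. Of these, 49.2% to 60.8% lay in MT-RNR2, the large mitochondrial ribosomal RNA, and only 28.4% to 35.6% lay in protein-coding genes, against 92.9% to 94.6% in the RNA libraries of the same stages. The protein-coding share was 35.0% and 35.6% in DE and 28.4% and 31.2% in PP1, so it moved with stage. Its part in the results was not tested. The 2 libraries of each stage differed by more than sampling noise, with a chi-square per degree of freedom of 10.6 in DE and 8.67 in PP1 (1 would be sampling noise alone). The labels do not say whether replicates were separate differentiations, so the p-values measure the spread between these libraries, which may be technical. The 3 Ribo libraries of the later PP2 stage were left out of the fit with earlier results of these data known. Of these, 2 stood apart in composition, with 95.3% and 81.1% of counts in protein-coding genes, while the other, at 44.5%, lay nearer to DE and PP1. This choice gives many more calls. Fitted with the 3, 682 genes rose and 454 fell of 15067 tested (7.54% in all, 4.53% and 3.01% by direction), and counts of list members from that fit of 7 Ribo libraries are given below. In bulk samples, fewer cells of a type and less RNA per cell cannot be told apart.

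From DE to PP1, footprints rose for 1650 genes (12.0% of those tested) and fell for 1500 (10.9%). Genes of mesendoderm and Nodal signalling fell furthest, while secreted plasma proteins of the liver lineage, a set of pancreatic transcription factors and the amino acid and protein-folding stress programmes rose. The median log2 fold change was 1.72 among genes that rose and -2.03 among genes that fell, and over all tested genes it was -0.02. The libraries of the 2 stages did not overlap for 1650 of the 1650 that rose and 1499 of the 1500 that fell. The same held for 5495 of the 10579 genes that did not pass, and for 8644 of all 13729 tested. Where stages are said below not to overlap, this describes the levels and adds no support to a call. Changes were often large: 375 genes rose and 425 fell by more than 8-fold, and 67 of the genes that rose and 79 of those that fell had 0 counts in both libraries of a stage. Without PP1 replicate 2 the number of genes that fell was 796.

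Footprint and RNA changes were similar in direction for most genes that passed. Of the 1538 genes that rose in Ribo and were tested in both assays, RNA rose for 1294 (84.1%), fell for 31 and did not pass for 213. Of the 1406 that fell in Ribo, RNA fell for 1127 (80.2%), rose for 33 and did not pass for 246. In RNA, 25.8% of 22095 tested genes rose and 24.9% fell. Among the 9900 genes that did not pass in Ribo, 2614 rose and 2485 fell in RNA, where protein-coding genes took more counts per library. Across 11883 protein-coding genes, which are not independent replicates, the footprint and RNA changes had a Pearson r of 0.801 and a Spearman rho of 0.678, and across the 7801 with at least 10 CPM of footprints in the higher stage these were 0.868 and 0.710. The points share their libraries and cell line, and so the depth of both.

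**Figure D1:**
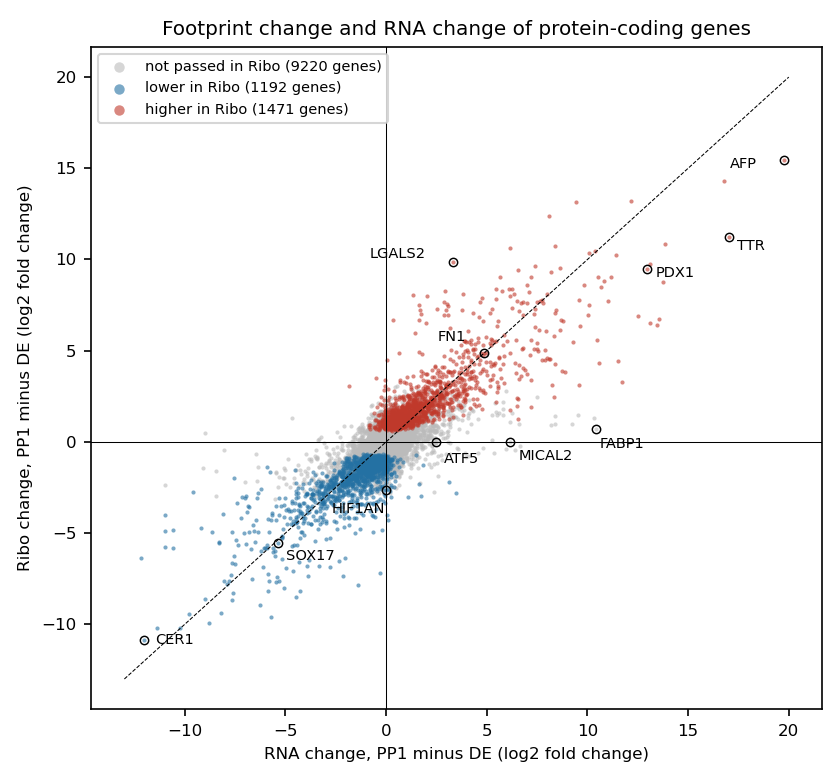
Each point is a protein-coding gene tested in both assays, with its RNA change on the x axis and its footprint change on the y axis (log2 fold change, PP1 minus DE), coloured by its call in Ribo, and the dashed line marks equal change. Most called genes lie in the upper right or lower left, while MICAL2 and FABP1 lie near 0 in Ribo despite a large RNA change and HIF1AN falls only in Ribo.

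The gene lists used below were drawn up by role, and their counts are read against the 12.0% of genes that rose and 10.9% that fell. Of the 129 genes given below with a Ribo call and a value, those that lost it with 1 of the 4 libraries left out are marked where they stand. HOXA2 was not tested without PP1 replicate 1.

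**Figure D2:**
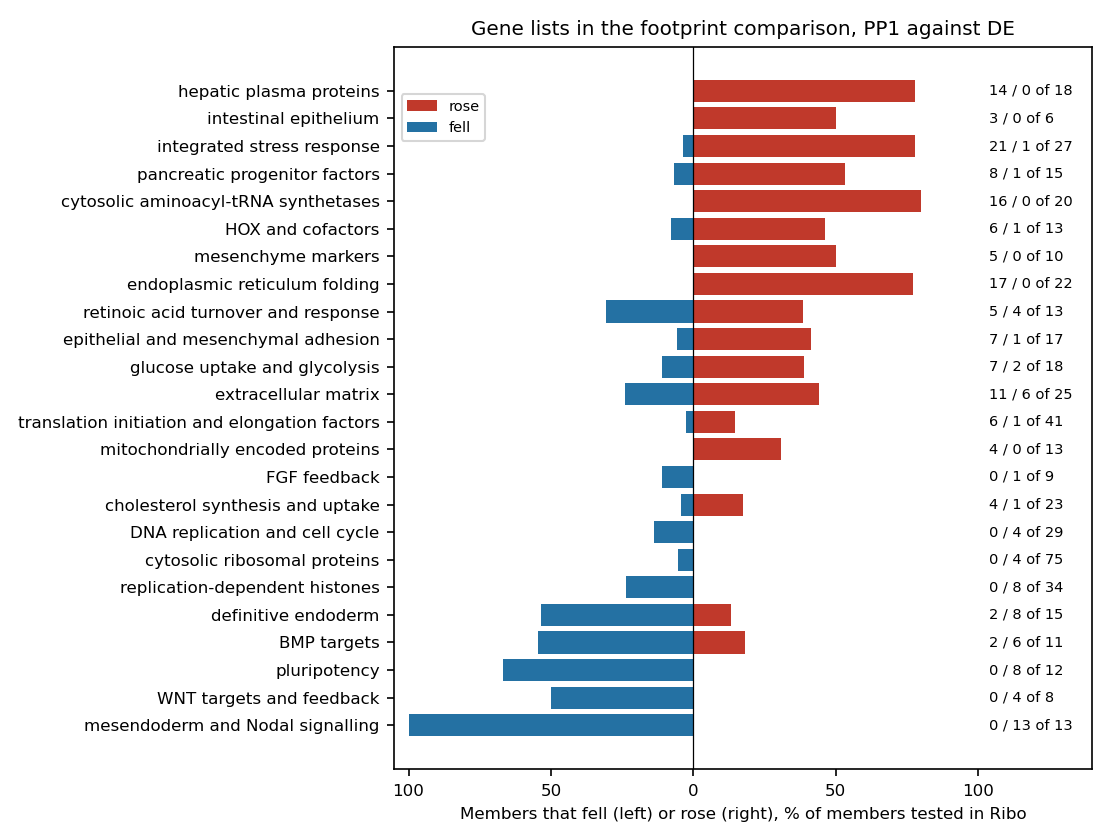
For each of 24 gene lists the bars give the percentage of tested members whose footprints fell (left) or rose (right) from DE to PP1, and the numbers give rose / fell of tested. Mesendoderm and Nodal genes fell in 13 of 13, and synthetase, stress, hepatic and folding lists rose in 77.3% to 80% of members.

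All 13 tested members of the mesendoderm and Nodal list fell (12 of 14 tested in the fit of 7 Ribo libraries), with a median log2 fold change of -7.62 (-6.63 with genes absent from a stage set at their bound), and RNA fell for all 15 tested there. They are ligands, antagonists and factors of the anterior primitive streak. CER1, a secreted antagonist of Nodal, BMP and WNT, had 1317 and 2144 CPM in the DE libraries and 1.30 and 0.469 CPM in the PP1 libraries, and fell by 10.88 (SE 0.46) on the log2 scale (edgeR adjusted p = 9.38e-10). It was among the 10 protein-coding genes with most Ribo counts in DE, and in PP1 only a few counts were left in each library. FGF17, a secreted FGF ligand, stood at 384 and 422 CPM in DE and 0.648 and 0.469 CPM in PP1 and fell by 9.43 (SE 0.38). Its relative FGF8 went from 65.95 and 50.2 to 2.16 and 1.64 CPM and fell by 4.91 (SE 0.39). Both ligands were high in both DE libraries and low in both PP1 libraries.

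The feedback inhibitors of Nodal fell with the ligand. NODAL itself was low in DE, at 3.83 and 8.65 CPM, and had 0 counts in PP1, so it was at least 18.4-fold lower with a floor of 3 counts over the stage. LEFTY1, a Nodal antagonist, was at 17.6 and 25.8 CPM in DE and 0 in both PP1 libraries, at least 64.2-fold lower. LEFTY2, its neighbour and paralogue, went from 83.1 and 102 CPM to 0.648 and 0.234 CPM and fell by 7.62 (SE 0.45). Of the Nodal co-receptor and its nuclear partner, TDGF1 went from 36.9 and 35.2 CPM in DE to 0 and 0.937 CPM in PP1 and fell by 6.25 (SE 0.61), and FOXH1 fell by 3.48 (SE 0.37). Without PP1 replicate 2, which held all the PP1 counts of TDGF1, its fitted change was -10.8. FOXH1 was the more retained, at 3.02 and 4.22 CPM in PP1 from 45.1 and 35.6 CPM in DE, without overlap. WNT3 fell by 2.04 (SE 0.48), the smallest fall in the list and the only member that lost its call in the fit of 7 Ribo libraries (edgeR adjusted p = 0.104). Without PP1 replicate 2 the edgeR adjusted p of WNT3 was 0.0693.

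Transcription factors of the streak and early endoderm fell in the same way. GSC, a homeobox factor of the organiser, had 146 and 173 CPM in DE and 0.216 and 0 CPM in PP1, where a single count remained. By counts it was lower by a ratio of 1419.9 (255 to 56106), where brackets hold the exact 95% interval, which covers counting error only. EOMES, a T-box factor that starts endoderm formation, was at 110.3 and 109 CPM in DE and 0.432 and 1.64 CPM in PP1 and fell by 6.72 (SE 0.42). MIXL1 went from 47.2 and 46.6 CPM to 0 and 0.937 CPM and fell by 6.63 (SE 0.59), with a fitted change of -11.2 without PP1 replicate 2. LHX1, with 2 counts left in PP1, was lower by a count ratio of 286 (78.9 to 2365). All 4 were expressed in both DE libraries and nearly or wholly absent in both PP1 libraries.

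Of 15 tested genes on the definitive endoderm list, 8 fell and 2 rose, with a median of -0.98, so the list split by gene. With 7 Ribo libraries in the fit 6 fell and 1 rose, and 1 rose without PP1 replicate 1. SOX17, a factor that specifies endoderm, stood at 146 and 133 CPM in DE and 3.02 and 2.81 CPM in PP1 and fell by 5.57 (SE 0.32, edgeR adjusted p = 1.60e-08). CXCR4, the chemokine receptor used to sort definitive endoderm, had 70.6 and 102 CPM in DE and 2.81 and 2.81 CPM in PP1 and fell by 4.93 (SE 0.35). OTX2 fell by 4.23 (SE 0.33) and HAS2, the hyaluronan synthase, by 2.95 (SE 0.30). These genes were many times higher in both DE libraries.

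The FOXA and GATA factors, which stay on in gut endoderm, changed less or in the other direction. FOXA2 was at 283 and 211 CPM in DE and 90.9 and 72.7 CPM in PP1 and fell by 1.596 (SE 0.24), while FOXA1 went from 9.93 and 1.30 CPM to 95.7 and 95.9 CPM and rose by 4.08 (SE 0.52). The DE libraries differed widely for FOXA1, yet both lay far below PP1, and without DE replicate 1 its rise was 6.21. GATA4, at 65.95 and 68.8 CPM in DE and 65.4 and 82.3 CPM in PP1, did not pass (log2 0.13, SE 0.24) and its libraries overlapped. GATA6 fell by 0.83 (SE 0.25), a call lost in the fit of 7 Ribo libraries and without DE replicate 1, PP1 replicate 1 or PP1 replicate 2 (edgeR adjusted p up to 0.177). HHEX, an early foregut factor, had overlapping libraries at 20.99 and 34.2 CPM in DE and 21.8 and 18.98 CPM in PP1.

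**Figure D3:**
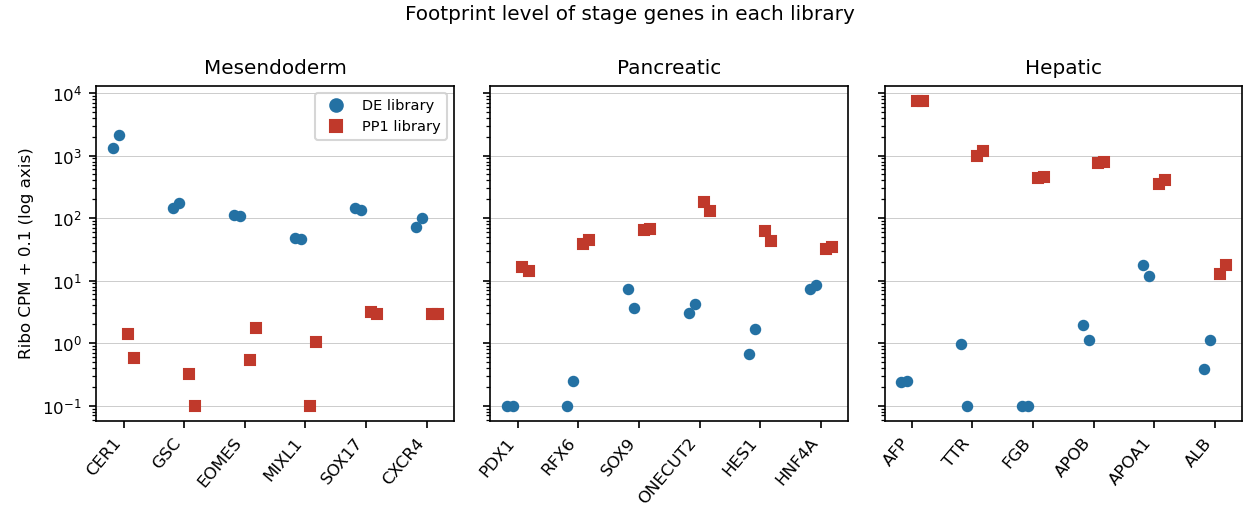
Each point is the footprint level of a gene in a library (CPM + 0.1, log axis), with DE libraries as blue circles and PP1 libraries as red squares, for mesendoderm, pancreatic and hepatic genes. The genes were picked for display and are not whole lists: of 15 tested pancreatic factors 8 rose, 1 fell and 6 did not pass. DE libraries lie above PP1 libraries for the 6 mesendoderm genes and below them for the other genes shown.

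Genes kept from the pluripotent state fell in 8 of 12 tested, and none rose (median -1.28). L1TD1, an RNA-binding protein of stem cells, had 146 and 174 CPM in DE and 24.4 and 15.9 CPM in PP1 and fell by 2.98 (SE 0.28). DNMT3B, the de novo DNA methyltransferase, fell by 1.78 (SE 0.27) from 95.6 and 70.9 CPM to 25.05 and 23.4 CPM. Both were lower in both PP1 libraries than in either DE library. LIN28A, a let-7 inhibitor, stayed at 66.3 and 74.8 CPM in PP1 against 96.9 and 146 CPM in DE and fell by 0.79 (SE 0.26), a call lost in the fit of 7 Ribo libraries and without DE replicate 2 (log2 -0.426), PP1 replicate 1 or PP1 replicate 2 (edgeR adjusted p up to 0.355). In the fit of 7 Ribo libraries 5 of the list fell, and without DE replicate 1, 8 fell and 2 rose. NANOG was low in DE, at 3.69 and 4.18 CPM, and at 0 in PP1 (at least 11.7-fold lower, a call lost in the fit of 7 Ribo libraries), and POU5F1 had too few counts to be tested.

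Readouts of WNT and BMP signalling fell in part. Of 8 tested WNT target and feedback genes, 4 fell (median -2.88), but under DESeq2 only 1 did. AXIN2, the classic feedback target, had 16.2 and 21.9 CPM in DE and 3.67 and 1.41 CPM in PP1 and fell by 2.88 (SE 0.49). LGR5, a receptor that strengthens WNT signals, went from 26.5 and 39.5 CPM to 0 and 2.34 CPM and fell by 4.84 (SE 0.66), with the PP1 libraries apart from each other but both below DE. Without PP1 replicate 2 its fitted change was -10.7. In the fit of 7 Ribo libraries 2 of these genes fell. Of 11 BMP genes, 6 fell and 2 rose. The ligand BMP2, at 90.1 and 83.3 CPM in DE and 20.3 and 21.1 CPM in PP1, fell by 2.07 (SE 0.26), and the inhibitor SMAD6 fell by 2.14 (SE 0.39). ID2, a helix-loop-helix inhibitor, went the other way from 32.5 and 29.6 CPM to 137 and 141 CPM and rose by 2.16 (SE 0.24). BAMBI, a decoy receptor for the TGF-beta family, rose by 1.97 (SE 0.25). Without PP1 replicate 2, 3 of the BMP genes fell, and in the fit of 7 Ribo libraries 2 did. FGF feedback genes were near the background, with 1 of 9 falling and none rising. None fell in the fit of 7 Ribo libraries, under DESeq2, or without DE replicate 2, PP1 replicate 1 or PP1 replicate 2, and without DE replicate 1, 2 rose.

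Of 15 tested pancreatic progenitor factors, 8 rose and 1 fell, with a median log2 fold change of 2.06, and 8 rose and none fell in the fit of 7 Ribo libraries. The median ran from 0.99 without a filter on low counts to 3.52 with a filter at a mean of 50 counts, where 5 rose. PDX1, the homeobox factor that marks pancreatic identity, had 0 counts in both DE libraries and 16.6 and 14.3 CPM in PP1, at least 72.3-fold higher (edgeR adjusted p = 9.07e-06). RFX6, a winged-helix factor of gut and islet development, was at 0 and 0.144 CPM in DE, a single count, and 39.1 and 44.1 CPM in PP1, a ratio of 580.1 (103.5 to 22972). ONECUT2 went from 2.98 and 4.18 CPM to 178 and 131 CPM and rose by 5.42 (SE 0.32). All 3 separated the stages fully.

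SOX9, which maintains multipotent pancreatic progenitors, stood at 7.23 and 3.604 CPM in DE and 63.5 and 67.7 CPM in PP1 and rose by 3.59 (SE 0.35). HES1, the Notch effector, rose by 5.59 (SE 0.46) from 0.567 and 1.59 CPM to 63.1 and 42.2 CPM. The nuclear receptors HNF4A and NR5A2 rose by 2.06 (SE 0.33) and 3.44 (SE 0.50). For all of these both PP1 libraries were above both DE libraries. The later progenitor factor NKX6-1 was low at both stages, at 2.69 and 2.16 CPM in DE and 0.648 and 0.937 CPM in PP1, and did not pass. MNX1 fell by 1.37 (SE 0.37) from 18.9 and 19.9 CPM to 8.42 and 6.56 CPM, a call lost in the fit of 7 Ribo libraries and without PP1 replicate 2 (edgeR adjusted p = 0.165). PTF1A and NKX2-2 had too few counts to be tested. INS and GCG had 0 counts in all 4 libraries, and 3 of 18 endocrine genes could be tested. All 3 fell, in the fit of 7 Ribo libraries too, PAX6 and ISL1 among them. PAX6, also an eye and neural factor, had 42.98 and 34.2 CPM in DE and 1.30 and 0 CPM in PP1, with a fitted change of -5.80 and of -10.9 without PP1 replicate 1.

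Retinoic acid genes exchanged members between the stages, with 5 of 13 rising and 4 falling (4 and 3 in the fit of 7 Ribo libraries). On the rising side, ALDH1A1, an enzyme that makes retinoic acid, went from 0.284 and 0.721 CPM to 41.7 and 62.6 CPM and rose by 6.64 (SE 0.49). DHRS3, which reduces retinal back to retinol, went from 2.55 and 3.75 CPM to 156 and 137 CPM and rose by 5.53 (SE 0.32). CYP26B1, which degrades retinoic acid, rose from 0.709 and 1.01 CPM to 26.8 and 29.5 CPM (edgeR adjusted p = 1.80e-06). The PP1 libraries were far above DE for all 3. On the falling side, the other degrading enzyme CYP26A1 went from 598 and 621 CPM to 174 and 143 CPM and fell by 1.95 (SE 0.22). The binding proteins CRABP1 and CRABP2 fell by 5.47 (SE 0.51) and 2.86 (SE 0.28).

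Of 13 tested HOX genes and cofactors on the list, 6 rose and 1 fell. HOXD13, which was not on it, fell to 0 counts in both PP1 libraries. HOXA2, a patterning factor, was at 0 in DE and at 5.40 and 2.34 CPM in PP1, at least 18.3-fold higher. MEIS2, a HOX cofactor, rose by 1.88 (SE 0.36) from 7.38 and 6.198 CPM to 21.8 and 28.4 CPM, whereas MEIS3 fell by 1.98 (SE 0.40). The list rests on few counts: without PP1 replicate 1, or without PP1 replicate 2, 3 members rose. With 7 Ribo libraries in the fit 4 rose and none fell, and MEIS3 lost its call (edgeR adjusted p = 0.148).

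Hepatic plasma protein genes rose in 14 of 18 tested and fell in none, with a median log2 fold change of 6.44, and 14 rose in the fit of 7 Ribo libraries too. AFP, the fetal plasma carrier, had 0.142 and 0.144 CPM in DE, which is a single count in each library, and 7401 and 7339.9 CPM in PP1. Its ratio of counts was 51555 (14271 to 425710.0) (edgeR adjusted p = 3.76e-11). AFP took more Ribo counts than any other protein-coding gene in PP1, and its RNA went from 0 counts in DE to 6323 and 6636 CPM. TTR, the thyroxine and retinol carrier, had 0.851 and 0 CPM in DE and 967 and 1179.8 CPM in PP1 and rose by 11.22 (SE 0.52). The switch was almost complete for both genes, with next to no counts in DE.

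The 3 fibrinogen chains rose together. FGB was at 0 in DE and 436 and 446 CPM in PP1, at least 2057-fold higher. FGA went from 0.709 and 1.15 CPM to 202 and 219 CPM and rose by 7.79 (SE 0.36), and FGG by a count ratio of 486 (166 to 2359.7). Lipoprotein genes rose beside them. APOB, the core protein of very-low-density lipoprotein, stood at 1.84 and 1.01 CPM in DE and 759 and 785 CPM in PP1 and rose by 9.06 (SE 0.35). MTTP, which loads lipid onto it, went from 0.142 and 0.144 CPM to 187 and 206 CPM, a count ratio of 1372 (379 to 11341). APOA1 and APOA2 already had some footprints in DE, at 17.4 and 11.8 CPM for APOA1 and 38.4 and 37.5 CPM for APOA2, and rose by 4.70 (SE 0.28) and 4.48 (SE 0.25). APOE, a lipid carrier, did not pass, at 1229.9 and 1307 CPM in DE and 1176 and 1231 CPM in PP1 (log2 -0.08, SE 0.22), and its libraries overlapped. ALB, the adult carrier, rose to only 12.7 and 17.8 CPM from 0.284 and 1.01 CPM (log2 4.52, SE 0.63). SERPINA1 rose by 6.498 (SE 0.39), VTN by 6.38 (SE 0.34) and AMBP by 7.62 (SE 0.40), while TF, RBP4 and AHSG did not pass.

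Among genes of these families, the letters of a long HNF1 binding site, GTTAAT, then any base, then ATT, were found on either strand in the 250 bases before the start of AFP and FGA. They are shown as the 2 hepatic genes that held these letters, chosen after the matches were seen. The windows are from RefSeq, build GRCh38.p14, read 5′ to 3′ on the gene strand, with the matched letters in capitals. The AFP window is chr4:73436084-73436103 on the plus strand and the FGA window is chr4:154590784-154590803 on the minus strand.
AFP: atgctGTTAATTATTggcaa
FGA: aagccAATGATTAACcaaac
The motif occurred in 62 of 15327 protein-coding genes with a promoter entry (0.405%) and in 2 of 17 hepatic genes, and of the other lists in 1 of 7 neural genes. The shorter GTTAAT, which it contains, occurred in 6.70% of all these promoters and in 6 of the 17, namely AFP, ALB, APOH, FGA, FGB and SERPINA1. Lists that did not rise held it as well, with 6 of 34 histone genes, 2 of 7 neural genes and 2 of 11 definitive endoderm genes. In all, 15 spellings of motifs were searched, and those described here were chosen after their matches were seen. A match is a description of the letters and not evidence that a factor binds there.

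Further genes with the highest fold changes included secreted proteins and enzymes. HABP2, a plasma serine protease, was at 199 and 198 CPM in PP1, at least 925-fold higher, and SPINK1, a trypsin inhibitor, at 96.5 and 136 CPM, at least 539-fold higher. Both were at 0 in DE. Other genes at 0 in DE were the glutathione transferase GSTA2 (at least 176-fold higher), the zinc finger factor ZBTB16 (at least 163-fold), the ubiquitin ligase RNF128 (at least 134-fold), AKR1D1 of bile acid synthesis (at least 85.9-fold) and the phosphodiesterase PDE3A (at least 82.8-fold). The cadherin CDH6 went from 0 and 0.144 CPM to 119.8 and 147 CPM, a count ratio of 1859.7 (333 to 73514). At the other end, apart from mesendoderm and Nodal genes, the lowest were SHISAL2B, VENTX, CD48, HOXD13, GAL, IFITM1, NMU and PLPP4. Of these, SHISAL2B, VENTX, CD48 and HOXD13 were at 0 in PP1. GAL, which encodes the neuropeptide galanin, went from 153 and 157 CPM to 0.216 and 1.17 CPM and fell by 7.80 (SE 0.43). NMU, which encodes neuromedin U, fell by 6.85 (SE 0.43) from 93.05 and 119 CPM.

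Intestinal genes rose in 3 of 6 tested, and in the fit of 7 Ribo libraries 3 rose too. VIL1, which bundles actin in microvilli, went from 4.11 and 6.63 CPM to 183 and 186 CPM and rose by 5.09 (SE 0.31). LGALS2 and CDH17 were at 0 in DE, and in PP1 LGALS2 was at 13.8 and 26.2 CPM (at least 92.2-fold higher) and CDH17 at 16.4 and 13.1 CPM (at least 69.2-fold higher). CDX2, the intestinal homeobox factor, had 8.79 and 0.432 CPM in DE and 9.72 and 16.4 CPM in PP1 and did not pass, although its RNA rose (log2 9.51). Its footprints rose without DE replicate 1 (log2 4.87) or without PP1 replicate 1 (log2 1.87). Summed over the markers chosen to check cell types, the 7 of definitive endoderm gave 2059 and 2826 CPM in DE and 198 and 199 CPM in PP1. The 6 pancreatic markers gave 48.9 and 50.7 CPM in DE and 155 and 153 CPM in PP1, the 4 hepatic markers 3.12 and 2.16 against 9140 and 9322 CPM, and the 3 intestinal markers 12.9 and 7.21 against 193 and 202 CPM. The libraries labelled DE and PP1 thus carried the markers their labels name, and hepatic markers stood beside the pancreatic in PP1. VIL1 alone gave 183 and 186 CPM of the intestinal sums in PP1, and LGALS4, the third of those markers, had a single count in each PP1 library. The 4 endocrine markers summed to at most 1.87 CPM in any library. Whether these came from the same cells was not tested.

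Genes of the integrated stress response, the programme in which ATF4 raises amino acid supply and damage control genes, rose in 21 of 27 tested and fell in 1 (median 2.63), and RNA rose for 25 of 28. ATF4 itself had 134 and 109.7 CPM in DE and 210.3 and 282 CPM in PP1 and rose by 1.01 (SE 0.24), with the RNA change at 1.02. Among secreted and regulatory targets, GDF15, a stress cytokine, went from 1.99 and 0.144 CPM to 83.1 and 69.1 CPM and rose by 6.12 (SE 0.52). TRIB3, a pseudokinase induced by stress, rose by 5.54 (SE 0.56) from 1.13 and 0.144 CPM to 31.5 and 30.2 CPM. CHAC1, which degrades glutathione, rose by 3.87 (SE 0.38), and DDIT3, the factor also called CHOP, by 2.60 (SE 0.30). All were higher in both PP1 libraries.

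The serine and one-carbon branch moved with them. PHGDH, the entry enzyme of serine synthesis, had 34.6 and 30.8 CPM in DE and 281 and 356 CPM in PP1 and rose by 3.28 (SE 0.25, edgeR adjusted p = 2.69e-07). PSAT1, the next step, rose by 3.20 (SE 0.34). SHMT2, which passes a carbon unit from serine to folate in mitochondria, went from 35.2 and 29.98 CPM to 204 and 203 CPM and rose by 2.64 (SE 0.24). The cystine carrier SLC7A11 rose by 3.83 (SE 0.45). By contrast, the cationic amino acid carrier SLC7A3 fell by 1.06 (SE 0.31) from 52.2 and 35.7 CPM to 24.6 and 17.3 CPM. In the fit of 7 Ribo libraries 16 of the list rose and none fell, and ATF4, DDIT3 and SLC7A3 were among those that lost the call. SLC7A3 also lost it without DE replicate 1 or PP1 replicate 2 (edgeR adjusted p up to 0.229).

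Among 20 cytosolic aminoacyl-tRNA synthetases, which charge tRNAs with amino acids, 16 rose and none fell, with a median log2 fold change of 1.40 in Ribo and 0.74 in RNA. GARS, the glycyl enzyme, had 25.2 and 28.97 CPM in DE and 158 and 204 CPM in PP1 and rose by 2.74 (SE 0.26). AARS, the alanyl enzyme, went from 59.9 and 57.2 CPM to 218 and 213 CPM and rose by 1.88 (SE 0.23). EPRS, which charges both glutamate and proline tRNA, rose by 2.48 (SE 0.28) from 17.7 and 12.3 CPM to 79.03 and 88.8 CPM. The stages did not overlap for these 3. DARS, HARS, RARS and QARS did not pass. Of the list, 9 rose in the fit of 7 Ribo libraries.

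Genes of protein folding in the endoplasmic reticulum rose in 17 of 22 tested and fell in none (median 1.11, RNA 1.12). HSPA5, the chaperone BiP, stood at 166 and 169 CPM in DE and 694 and 662 CPM in PP1 and rose by 2.02 (SE 0.22, edgeR adjusted p = 9.46e-06). The co-chaperone DNAJB9 had the largest rise of the list, from 1.42 and 0.721 CPM to 20.9 and 18.7 CPM (log2 4.18, SE 0.51). XBP1, a factor of the unfolded protein response, rose by 2.37 (SE 0.25) from 19.6 and 21.05 CPM to 98.9 and 111 CPM, and HERPUD1, of protein degradation at the same membrane, by 2.61 (SE 0.32). These 4 were clearly apart between stages. The abundant chaperones rose less. CALR, or calreticulin, went from 1021 and 1214 CPM to 1803 and 1948 CPM (log2 0.75, SE 0.23), and HSP90B1 from 771 and 819.8 CPM to 1455 and 1156 CPM (log2 0.71, SE 0.23). In the fit of 7 Ribo libraries 5 of the list rose, and HSPA5 (edgeR adjusted p = 0.0553), CALR and HSP90B1 lost the call. CALR also lost it without DE replicate 1 (edgeR adjusted p = 0.178), and HSP90B1 without DE replicate 1, DE replicate 2 or PP1 replicate 1 (edgeR adjusted p up to 0.139).

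**Figure D4:**
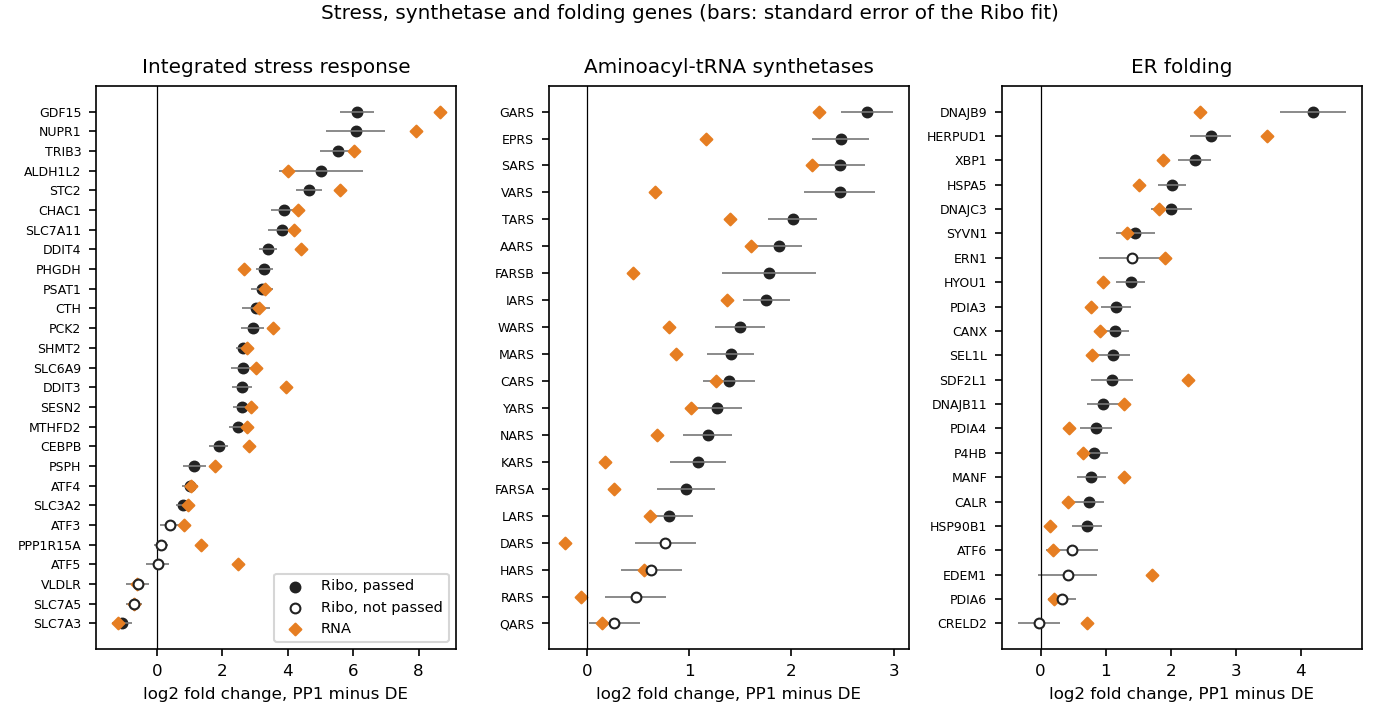
Log2 fold changes from DE to PP1 are shown gene by gene for the stress response, synthetase and folding lists, with circles for Ribo (filled where passed, bars for the standard error) and orange diamonds for RNA. Most circles lie right of 0, and ATF5 and PPP1R15A show a higher RNA than Ribo change.

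The endoplasmic reticulum stress element, the letters CCAAT, then 9 bases of any kind, then CCACG, on either strand, was searched in the same 250-base windows because this list moved together. It occurred in 21 of 15327 promoters (0.137%), 7 of them in the 21 folding genes with an entry. These were HSPA5, XBP1, CANX, CALR, HSP90B1, PDIA6 and CRELD2, of which the last pair did not pass in Ribo. Among protein-coding genes with an entry, 7 of the 1189 that rose and 0 of the 968 that fell held it. The windows below are from RefSeq, build GRCh38.p14, read 5′ to 3′ on the gene strand, with the matched letters in capitals. The match in CALR and 1 of the 2 in HSP90B1 are on the opposite strand. Their places are chr9:125241386-125241414 (minus strand) for HSPA5, chr22:28800598-28800626 (minus) for XBP1, chr5:179698773-179698801 (plus) for CANX, chr19:12938379-12938407 (plus) for CALR, and chr12:103930211-103930239 and chr12:103930316-103930344 (plus) for HSP90B1.
HSPA5: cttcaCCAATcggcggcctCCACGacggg
XBP1: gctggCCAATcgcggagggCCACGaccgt
CANX: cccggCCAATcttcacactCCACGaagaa
CALR: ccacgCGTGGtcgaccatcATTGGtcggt
HSP90B1 upstream: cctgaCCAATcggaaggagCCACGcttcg
HSP90B1 downstream: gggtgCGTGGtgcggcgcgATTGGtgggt
The matches ended 33 to 206 bases before the annotated start. A core of the C/EBP-ATF response element, TGATGNAA, was found on either strand in 489 promoters (3.19%). It was found in 4 of 23 stress response genes with an entry (ASNS, ATF3, CHAC1 and FGF21), in 3 of 16 synthetases (AARS, GARS and IARS, listed there as AARS1, GARS1 and IARS1) and in HERPUD1. It was also found in 2 of 9 mesendoderm and Nodal genes (22.2%), a list that fell. CHAC1 and HERPUD1 are printed as examples, at chr15:40953257-40953274 and chr16:56931961-56931978, both on the plus strand, with the match on the opposite strand.
CHAC1: tgccgTTGCATCActcct
HERPUD1: gcgggTTGCATCAgcccg
No inference about a factor is drawn from a match or from its absence.

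The translation machinery itself changed little in Ribo. Of 75 tested cytosolic ribosomal protein genes, none rose and 4 fell (median -0.18), whereas in RNA 58 of 78 rose (median 0.40). The test of the difference between the assays, described below, passed for few: of 75 tested, none had a higher and 3 a lower change in Ribo (median difference -0.51). RPL29, RPL26 and RPLP1 were among the 4, and ribosomal protein genes have many near-identical copies that the counting could split. RPLP1, of the ribosome stalk, went from 82.3 and 115 CPM to 44.05 and 60.5 CPM and fell by 0.92 (SE 0.26), a call lost without DE replicate 2 or PP1 replicate 1 (edgeR adjusted p up to 0.201). None fell in the fit of 7 Ribo libraries, and 2 fell without DE replicate 2 or without PP1 replicate 1. Of 41 translation factors, 6 rose and 1 fell, close to the background. EIF4G1, the scaffold of the cap-binding complex, rose by 1.43 (SE 0.23) from 62.4 and 63.4 CPM to 180.3 and 158 CPM. EEF2, the translocase of elongation, rose by 0.95 (SE 0.22), and EIF4A1, the helicase, fell by 2.01 (SE 0.41). No translation factor passed in the fit of 7 Ribo libraries. Of the 13 mitochondrially encoded protein genes 4 rose (median 0.36), among them MT-CO2 from 164 and 149.9 CPM to 293 and 302 CPM (log2 0.92, SE 0.22). None of them rose in the fit of 7 Ribo libraries, and 2 rose without PP1 replicate 2.

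Metabolic lists were mixed. In glucose uptake and glycolysis 7 of 18 rose and 2 fell (median 0.58), while in RNA 5 of 19 rose and 11 fell (median -0.44). The test of the difference between the assays passed for few: of 18 tested, 3 had a higher and 0 a lower change in Ribo (median difference 0.74). PFKP, a phosphofructokinase, went from 23.8 and 16.4 CPM to 77.95 and 87.4 CPM and rose by 2.04 (SE 0.27). HK2, a hexokinase, rose by 1.96 (SE 0.32). SLC2A3, the transporter GLUT3, went from 505 and 529 CPM to 99.5 and 94.2 CPM and fell by 2.42 (SE 0.22), the reverse of SLC2A1, or GLUT1, which rose by 1.14 (SE 0.28). Of these, SLC2A1 lost its call in the fit of 7 Ribo libraries, in which 3 genes of the list rose, and without PP1 replicate 2 it was 4. Of 23 cholesterol genes 4 rose and 1 fell. LSS, FDFT1 and SC5D were among those that rose, and TM7SF2 fell. Leaving out DE replicate 1, PP1 replicate 1 or PP1 replicate 2 left 2 that rose, and the fit of 7 Ribo libraries left 1. Of 29 replication and cell cycle genes 4 fell and none rose, and of 34 tested replication-dependent histone genes 8 fell and none rose (median -0.36). CCND1, or cyclin D1, fell by 1.15 (SE 0.29) from 37.6 and 45.6 CPM to 18.6 and 18.7 CPM, a call lost without PP1 replicate 1 or PP1 replicate 2 (edgeR adjusted p up to 0.0651). MKI67, the proliferation antigen, did not pass, at 108 and 94.8 CPM in DE and 117 and 112 CPM in PP1. The histone falls rest in part on PP1 replicate 1, without which 2 fell, and on DE replicate 2, without which 5 fell. Without PP1 replicate 1 there was 1 cell cycle gene that fell, without PP1 replicate 2 there were 2, and in the fit of 7 Ribo libraries 0 cell cycle genes and 1 histone gene fell. Near-identical histone genes share reads, so single histone values are uncertain.

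Extracellular matrix genes rose in 11 of 25 and fell in 6. FN1, or fibronectin, had 232 and 197 CPM in DE and 6415 and 5999 CPM in PP1 and rose by 4.85 (SE 0.28, edgeR adjusted p = 1.60e-08), with an RNA change of 4.86. It took the second-largest number of Ribo counts among protein-coding genes in PP1. VCAN, the proteoglycan versican, was also among the 10 with most counts there, at 1376 and 1262 CPM from 107 and 59.4 CPM in DE (log2 3.99, SE 0.30). Basement membrane genes rose, with LAMB1 and LAMC1, laminin chains, by 2.26 (SE 0.23) and 2.69 (SE 0.27) and NID1, which links laminin to collagen, by 2.48 (SE 0.27). Several collagens fell. COL6A2 went from 328 and 363 CPM to 72.6 and 57.7 CPM and fell by 2.41 (SE 0.24), COL9A3 fell by 3.13 (SE 0.30), and COL4A1 by 1.59 (SE 0.23). COL3A1, a fibrillar collagen, went the other way, from 0.709 and 0.865 CPM to 69.7 and 67.3 CPM (log2 6.41, SE 0.39). In the fit of 7 Ribo libraries 6 of the list rose and 2 fell, and COL4A1 lost its call.

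Of 10 tested mesenchyme markers 5 rose, namely COL3A1, LUM, ACTA2, COL1A1 and COL1A2, and 2 of these in the fit of 7 Ribo libraries and 3 without PP1 replicate 2. Summed over COL1A1, COL3A1, LUM, DCN, PDGFRA and PDGFRB, the Ribo level was 45.8 and 59.8 CPM in DE and 207 and 196 CPM in PP1, beside the change in matrix genes. Their part in it was not tested. Adhesion genes rose in 7 of 17. CDH1, or E-cadherin, had 26.9 and 32.7 CPM in DE and 179 and 188 CPM in PP1 and rose by 2.62 (SE 0.25), and VIM, or vimentin, rose as well, by 2.33 (SE 0.28), from 28.8 and 38.3 CPM to 132 and 207 CPM. SNAI1, a repressor of CDH1, fell by 2.07 (SE 0.69), a call lost in the fit of 7 Ribo libraries and without PP1 replicate 1 (log2 -1.27, edgeR adjusted p = 0.297), and its change was -3.58 without PP1 replicate 2. In that fit 3 of the list rose, and 4 rose without PP1 replicate 2. The 4 neural markers summed to 44.7 and 40.9 CPM in DE and 3.89 and 2.81 CPM in PP1, and PAX6 made up nearly all of the DE sums. The 4 endothelial and blood markers PECAM1, CDH5, HBZ and PTPRC stayed between 0.993 and 3.98 CPM in sum, with HBZ at 0 in all 4 libraries. The longer list of that name, with 12 genes, summed to 58.2 and 76.4 CPM in DE and 58.5 and 46.2 CPM in PP1.

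The footprint change was then set against the RNA change of the same gene in 1 fit of 8 libraries, where the interaction, the Ribo change minus the RNA change, was tested. It was higher than 0 for 458 genes (3.57% of 12844) and lower for 298 (2.32%), 5.89% in all. These counts depended strongly on the libraries. Without any 1 of the 4 RNA libraries they were 27 to 48 higher and 58 to 105 lower, without Ribo PP1 replicate 2 they were 86 and 68, without Ribo DE replicate 1 they were 1148 and 702, and without Ribo DE replicate 2 they were 1523 and 929. With all 14 libraries in the fit they were 10 and 28. Single genes are therefore given with their levels in each library. Of the 19 interactions given, 9 kept their call without any 1 of the 8 libraries, namely those of MIR302A, MIR302B, AJAP1, MICAL2, SYTL5, COL3A1, HIF1AN, FABP1 and SOX9. The other 10 lost it in at least 1 such fit, with edgeR adjusted p up to 0.885 for LGR5, 0.218 for ADGRG1, 0.144 for EIF4G1, 0.117 for EPRS, 0.115 for SERPINA1, 0.107 for PPP1R15A, 0.0942 for GPX2, 0.0754 for CDX2, 0.0684 for ONECUT2 and 0.0515 for ATF5.

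MICAL2, an actin-oxidising enzyme, passed in RNA and not in Ribo. Its footprints were 24.4 and 30.99 CPM in DE and 23.8 and 32.3 CPM in PP1, with overlapping libraries, while its RNA went from 1.80 and 1.69 CPM to 111 and 138 CPM, and the interaction was -6.05 (SE 0.35, edgeR adjusted p = 1.11e-05). SYTL5, of vesicle trafficking, rose in both assays, but from 0.900 and 0.439 CPM to 205 and 209 CPM in RNA and from 8.23 and 6.05 CPM to 59.6 and 66.6 CPM in Ribo (interaction -5.01, SE 0.37). ADGRG1, an adhesion receptor, had an interaction of -4.08 (SE 1.01), with PP1 footprints of 28.7 and 7.27 CPM that differed between the libraries. Its rise in Ribo was lost without PP1 replicate 1 (log2 1.06, edgeR adjusted p = 0.441). For COL3A1 and SERPINA1 the RNA had 0 counts in DE, so their fitted interactions of -6.12 and -5.70 depend on the prior count and are no bound. In the other direction, AJAP1, a junction protein, fell in Ribo from 18.2 and 21.6 CPM to 8.42 and 7.03 CPM but in RNA from 47.4 and 53.5 CPM to 0.990 and 0.691 CPM (interaction 4.63, SE 0.40, edgeR adjusted p = 1.56e-04). LGR5 RNA fell from 98.4 and 101 CPM to 0.132 and 0 CPM, with a fitted interaction of 5.70 (SE 1.48). GPX2, a glutathione peroxidase, went from 0.142 and 0 CPM to 22.7 and 29.1 CPM in Ribo and from 2.98 and 4.02 CPM to 57.1 and 40.6 CPM in RNA (fitted interaction 4.67, SE 0.95). With so few counts of LGR5 RNA in PP1 and of GPX2 footprints in DE, the sizes of both depend on the prior count. Without Ribo PP1 replicate 2, the library that held all the LGR5 footprints of PP1, the LGR5 value was -2.28, and without Ribo DE replicate 1 the GPX2 value was 8.73. AJAP1's call in Ribo was lost without PP1 replicate 1 or PP1 replicate 2, and its change ran from -1.45 to -1.19 with a library left out. In the fit of 7 Ribo libraries the Ribo calls of AJAP1 (edgeR adjusted p = 0.472) and ADGRG1 (edgeR adjusted p = 0.0888) were lost.

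Some members of the lists also moved less in Ribo than in RNA. SOX9 RNA went from 1.01 and 1.63 CPM to 124 and 146 CPM, so its interaction was -2.999 (SE 0.43, edgeR adjusted p = 0.00421), and that of ONECUT2 was -1.98 (SE 0.34, edgeR adjusted p = 0.0109). CDX2 RNA went from 0.0563 and 0.188 CPM to 90.4 and 93.3 CPM (interaction -7.88, SE 1.26), and without Ribo DE replicate 1 the value was -4.48. FABP1, a fatty acid carrier of gut and liver, had 0 RNA counts in DE and 9.57 and 10.2 CPM in PP1, while its footprints were 11.1 and 14.6 CPM in DE and 15.5 and 26.01 CPM in PP1 and did not pass. The stress factors ATF5 and PPP1R15A, both known for upstream open reading frames in their mRNAs, had RNA rises of 2.48 and 1.35. ATF5 footprints stayed at 15.7 and 15.1 CPM in DE and 17.5 and 13.6 CPM in PP1, with an interaction of -2.39 (SE 0.35, edgeR adjusted p = 0.00508), and PPP1R15A footprints at 158 and 157 CPM in DE and 169 and 171 CPM in PP1, with an interaction of -1.16 (SE 0.21, edgeR adjusted p = 0.0135). For EPRS and EIF4G1 the footprints rose more than the RNA, with interactions of 1.40 (SE 0.25) and 1.10 (SE 0.20). Counts cover whole genes, so footprints on upstream frames and on the main frame were not told apart.

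The most counted genes include cases that RNA did not match. HIF1AN, the hydroxylase that inhibits HIF1A, had 1061 and 1247 CPM of footprints in DE and 151 and 221 CPM in PP1 and fell by 2.63 (SE 0.26), whereas its RNA stood at 109.9 and 120.4 CPM in DE and 126 and 102 CPM in PP1 and did not pass (interaction -2.54, SE 0.29, edgeR adjusted p = 0.00143). Its call in Ribo was lost in the fit of 7 Ribo libraries (edgeR adjusted p = 0.0516). CCDC105 had 6864 and 11306 CPM in DE, 3692 and 0 CPM in PP1 and 0 counts in every RNA library, and did not pass, although its fall passed when any 1 of the 4 libraries was left out. The PP1 libraries thus disagreed, and which of them is typical was not tested. RP1, a photoreceptor gene, had 1021 and 2109.6 CPM of footprints in DE and 895 and 601 CPM in PP1 but under 1 CPM of RNA in every DE and PP1 library, and fell by 1.06 (SE 0.31), a call lost in the fit of 7 Ribo libraries and without DE replicate 2 (log2 -0.417, edgeR adjusted p = 0.379). Where in these genes the reads lay is not recorded in the counts.

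Gene types differed in the comparison. Of 398 tested lncRNA genes 90 fell and 16 rose, of 73 snoRNA genes 24 rose and none fell, and of 119 microRNA genes 73 rose (61.3%) and 6 fell (5.04%), 66.4% in all. Of those 73, 21 passed in the fit of 7 Ribo libraries, and of the 6, 2 did. As a share of all Ribo counts, microRNA genes made up 1.38% and 1.29% in DE and 2.04% and 2.06% in PP1. MALAT1, a nuclear lncRNA, fell from 2.56% and 2.05% to 0.955% and 0.585%. Whether these reads came from ribosomes was not tested. microRNAs were singled out after their values were seen. The counts are per hairpin gene, and neither the arm nor the strand setting of the counting is given in the sources used here.

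The mature 3p sequences of the stem cell family miR-302 and of miR-373 are shown because these genes share a seed, and those of miR-27b and the miR-148 pair because they were among the genes that rose. A microRNA finds its targets through the seed, bases 2 to 8, in capitals here. The sequences are from RefSeq, build GRCh38.p14, which held a mature entry for 110 of the 119 tested genes.
miR-302a-3p: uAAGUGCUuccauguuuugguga
miR-302b-3p: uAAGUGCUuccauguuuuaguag
miR-302c-3p: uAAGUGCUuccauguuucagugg
miR-302d-3p: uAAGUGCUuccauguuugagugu
miR-373-3p: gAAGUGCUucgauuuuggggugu
miR-27b-3p: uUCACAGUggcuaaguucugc
miR-148a-3p: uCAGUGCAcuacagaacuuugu
miR-148b-3p: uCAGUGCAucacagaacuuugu
The 4 miR-302 sequences lie together on the minus strand of chromosome 4, from chr4:112648006-112648028 for 302d to chr4:112648489-112648511 for 302b, and with miR-373 they share the seed AAGUGCU. The others lie at chr19:53788748-53788770 (plus strand) for 373, chr9:95085505-95085525 (plus) for 27b, chr7:25949922-25949943 (minus) for 148a and chr12:54337278-54337299 (plus) for 148b. The miR-148 pair shares the seed CAGUGCA.

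None of the miR-302 genes passed in Ribo, while their RNA fell. MIR302A had 6839.9 and 6052 CPM in the DE Ribo libraries and 7654 and 6886 CPM in PP1 (log2 0.17, SE 0.24), but 21.8 and 20.3 CPM in DE RNA and 0.264 and 0 CPM in PP1 RNA. Its interaction was 7.63 (SE 0.59, edgeR adjusted p = 6.19e-05). MIR302B stood at 93.9 and 109 CPM in DE and 115 and 107 CPM in PP1 in Ribo and fell in RNA (log2 -7.69), with an interaction of 7.84 (SE 0.34, edgeR adjusted p = 9.32e-07). MIR302C had 151 and 157 CPM in DE and 141 and 97.5 CPM in PP1 and MIR302D 36.6 and 28.8 CPM and 30.7 and 35.6 CPM in Ribo, and both fell in RNA (log2 -4.74 and -4.19). MIR302CHG, the host transcript of the cluster, fell in Ribo from 413 and 339 CPM to 1.08 and 0.469 CPM. MIR373, with the same seed but from chromosome 19, fell in Ribo from 57.9 and 68.5 CPM to 7.13 and 11.95 CPM (log2 -2.73, SE 0.32). Genes with this seed were thus not called alike in Ribo, and the difference between them was not tested.

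Among those that rose, MIR27B went from 191 and 216 CPM to 3742 and 2776 CPM in Ribo (edgeR adjusted p = 8.69e-08). MIR148A went from 164 and 202 CPM to 2104 and 1755 CPM (log2 3.40, SE 0.25). MIR148B rose by 2.69 (SE 0.31). MIR483, which lies in the IGF2 gene, went from 1.56 and 2.16 CPM to 74.3 and 129 CPM (log2 5.75, SE 0.39), and MIR146B and MIR100 rose by 4.47 (SE 0.39) and 4.66 (SE 0.40). MIR27B, MIR148A, MIR148B, MIR483, MIR146B and MIR100 rose in the fit of 7 Ribo libraries as well. MIR375 was among the 6 microRNA genes that fell, a call lost in that fit.

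**Figure D5:**
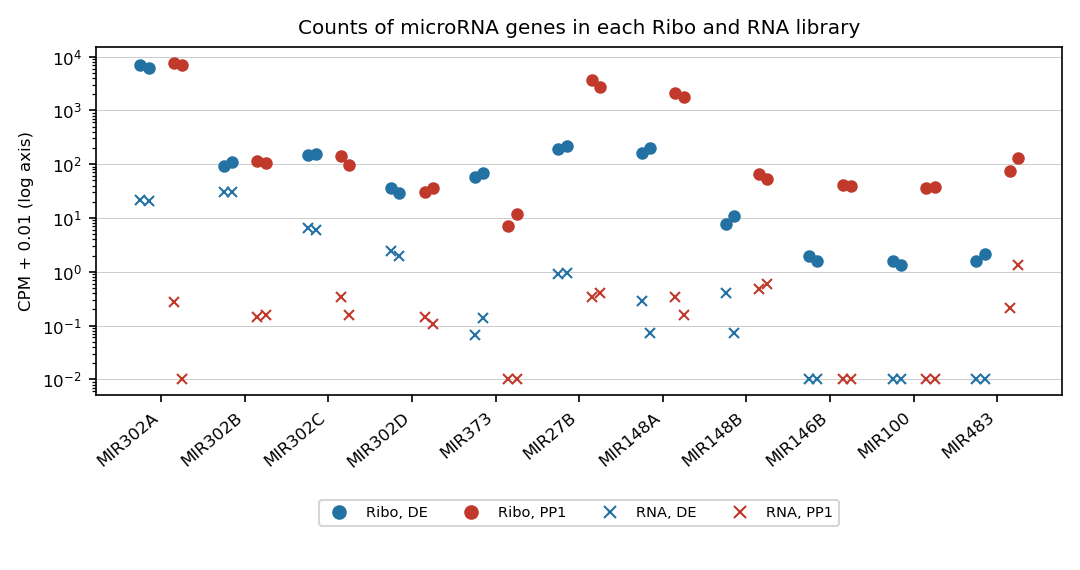
The level of each microRNA gene in each library is shown (CPM + 0.01, log axis), with circles for Ribo and crosses for RNA, blue for DE and red for PP1. In Ribo the 4 miR-302 genes overlap or nearly overlap between stages, MIR373 is lower in PP1 and the other 6 are higher in PP1.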

How the data were processed

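RNA labelled as ribosome-bound and rRNA-depleted total RNA from the HUES8 cell line were sequenced at 3 stages of pancreatic differentiation, and the DE and PP1 libraries were used here. The deposited values are raw read counts per gene. Per the submitters' processing notes, cutadapt 1.18, Bowtie 1.2, STAR 2.7.1a and featureCounts 1.6.4 were used with build hg38. The counted feature, the strand setting and the handling of overlapping genes are not given in the sources used here, so reads of overlapping, antisense and near-identical genes could not be told apart.

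Counts were filtered with filterByExpr, normalised by TMM and tested with edgeR 4.0.16's quasi-likelihood F test (R 4.3.3) with Benjamini-Hochberg adjustment over all genes tested, at 0.05. The comparison used the 4 Ribo libraries. RNA was fitted in the same way, and the interaction of assay and stage in 8 libraries. Other normalisations, filters, tools (DESeq2 1.42.0, limma 3.58.1), a replicate block and each library left out in turn were tried. The code was tested on simulated data. Where a gene had 0 counts in a stage, its fold was bounded with a floor of 3 counts over that stage. Ratios of genes with 1 to 3 counts in a stage carry exact 95% intervals. Intervals and bounds cover counting error only.

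The comparison and the 27 gene lists (580 genes, 579 of them in the table, 54 under an older symbol) were chosen with earlier results of these data known. Beside members of the lists, genes were named by rule: the 15 highest and 15 lowest fold changes among protein-coding genes that passed, reached a mean of 10 CPM in the higher stage and did not overlap between stages, the 10 protein-coding genes with most counts in each stage, and the 5 highest and 5 lowest interactions among genes that passed with a mean of at least 10 CPM over both stages in each assay. Interactions of some list members, such as FABP1 and CDX2, were given whatever their level. Those of others that passed, such as LGALS2 and LHX1, were not given. microRNAs other than MIR302A and MIR302B, and MIR302CHG, were named after their values were seen. Gene types, promoters and mature microRNAs were matched by symbol to RefSeq tables of build GRCh38.p14. Some genes that the rule or lists would name are not reported here.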

Additional observations from a re-analysis of the deposited data

Results flagged for a closer look

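The test of the difference itself, the Ribo change from DE to PP1 less the RNA change, came from 1 edgeR fit of 8 libraries. It passed for 756 of 12844 genes, 458 higher and 298 lower. The 19 listed here, on the log2 scale, are the interactions counted above. They are a selection, so their split by direction is not that of all genes that passed. MIR27B, MIR302C, MIR302D, LGALS2 and LHX1, named above, passed too and are not among the 19. The 2 libraries per group are too few for a check of single outlying samples.

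Ribo counts fell less or rose more than RNA for 7 of the 19. MIR302B and MIR302A among them are microRNA genes, and whether their Ribo reads came from ribosomes was not tested. The values were 7.84 for MIR302B (edgeR adjusted p = 9.32e-07), 7.63 for MIR302A (edgeR adjusted p = 6.19e-05) and 4.63 for AJAP1 (edgeR adjusted p = 0.000156). They were 5.70 for LGR5, 4.67 for GPX2, 1.40 for EPRS and 1.10 for EIF4G1, and these 4 lost the call without at least 1 library.

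Footprints rose less or fell more than RNA for the other 12. MICAL2 had -6.05 (edgeR adjusted p = 1.11e-05), SYTL5 -5.01 (edgeR adjusted p = 6.19e-05), HIF1AN -2.54 (edgeR adjusted p = 0.00143) and SOX9 -3.0 (edgeR adjusted p = 0.00421). FABP1 had -8.83 and COL3A1 -6.12, both fitted against 0 RNA counts in DE and so dependent on the prior count. The remaining values were -7.88 for CDX2, -5.70 for SERPINA1, -4.08 for ADGRG1, -2.39 for ATF5, -1.98 for ONECUT2 and -1.16 for PPP1R15A, and these 6 lost the call without at least 1 library. What these differences reflect was not tested.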

How the results depend on the processing

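Where a count moved by over 1.5 times, the alternatives were as follows. With all 7 Ribo libraries in the fit 682 genes rose and 454 fell, and with a test against a 2-fold change (glmTreat) 639 and 570. Leaving out 1 library gave 1106 to 1989 that rose and 796 to 1664 that fell. In RNA, the fit of all 7 RNA libraries gave 3034 higher and 2945 lower. The interaction gave 10 higher and 28 lower with all 14 libraries, 291 higher with a filter at a mean of 50 counts, 811 and 637 with DESeq2, and 27 to 1523 higher and 58 to 929 lower with 1 library left out. The other settings of the Ribo comparison stayed within 1.5 times: 1464 rose and 1159 fell under DESeq2, 1669 and 1198 under voom, 1659 and 1477 under size factors, and 1676 and 1387 without a filter. The cause of these shifts was not tested.

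Some list medians near 0 changed sign. FGF feedback went to -0.000533 with the filter at 50 counts and ran from -0.069 to 0.34 with a library left out. Neural markers went to 0.062 with voom and ran from -1.28 to 0.35, and endothelial and blood markers went to -0.83 with the filter. With a library left out, ribosomal proteins ran from -0.200 to 0.0099, cell cycle genes from -0.18 to 0.13 and histones from -0.74 to 0.061. The mitochondrially encoded list has no value where those genes are left out of the normalisation.

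Of single genes, 4 that did not pass changed sign in Ribo. ATF5 was at -0.0016 in the fit of 7 libraries, -0.053 with the filter and -0.015 with protein-coding genes only, and -0.13 to 0.22 with a library left out. MICAL2 was at -0.048 with the filter and -0.0113 with protein-coding genes only, and -0.18 to 0.27 with a library left out. MIR302D was at -0.0487 with the filter and -0.11 to 0.23 with a library left out, and APOE at -0.088 to 0.0057. The LGR5 interaction ran from -2.28 to 7.94.

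The stages share replicate numbers. With these as a replicate block 2174 genes rose and 1893 fell in Ribo, 5455 and 5289 in RNA, and 338 and 221 in the interaction. Deviations of same-numbered libraries had a correlation of 0.177 in Ribo and -0.058 in RNA, and the labels name no shared source, so the samples share only a number. The block took the ribosomal proteins that fell to 9 and the translation factors and adhesion genes that rose to 11 each.

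Of 129 named genes that passed, the fit of 7 Ribo libraries kept 104 calls, and DESeq2 126. Depth limits genes with few counts: of 59050 genes, 13729 were tested.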
